A study of Homo sapiens with 2 samples.

Results

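Axon guidance genes named in the platform annotation were examined by family: Eph receptors and ephrins, plexins and neuropilins, netrins and UNC5 receptors, SLIT ligands, contactins and contactin-associated proteins, the L1 adhesion molecules and the DPYSL phosphoproteins, with the matrix protein gene EDIL3 added by name. Members were taken by the first letters of their symbols, leaving out antisense genes and the SLITRK genes, and each gene was represented by the probe set that had the highest mean level. The choice gave 67 genes of 13763 named genes. No probe set carries a symbol that starts with SEMA or ROBO in the annotation used here, so the semaphorins and the ROBO receptors are not analysed here although both belong to these families. UNC50, a Golgi membrane protein gene, and SLIT2-IT1, a transcript from within a SLIT2 intron, entered by their letters alone and have no known guidance role.

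The samples were cultures of S2-013, a human pancreatic cancer cell line, hybridised to Affymetrix whole-transcript arrays. In both, HOXB7 had been knocked down and a HOXB7 rescue plasmid then transfected, so the knockdown and the rescue are shared. One culture had MEK inhibitor treatment and the other had none, with 1 array for each. MEK is the kinase that activates ERK, and the series asks what HOXB7-MEK signalling controls. The labels used here do not state which inhibitor it was, at what dose or for how long. With 1 array per condition and 1 cell line, no value has a replicate error, no test was possible, and a difference between the cultures cannot be told apart from an effect of the drug.

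Guidance proteins were first studied as cues that steer growing axons, and epithelial and tumour cells use many of them to set contact, repulsion and migration. Ephrins are membrane-bound ligands of the Eph receptor tyrosine kinases on neighbouring cells and pass signals into both cells. Semaphorins bind plexins, often with a neuropilin as co-receptor. Netrins bind DCC, neogenin and UNC5 receptors, and SLIT proteins bind ROBO receptors.

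Values are log2 probe set values. A gene counted as measured when at least 1 of its 2 values was 4.78 or more. This level, called the floor below, is the median over all named genes. It was reached by 32 of the 67 genes, and 27 of these reached it in both arrays. HOXB7 read 5.85 with the inhibitor against 5.84 without it. The cell line's epithelial markers were present: all 6 named ones reached the floor, with values from 4.90 to 11.58, among them EPCAM, KRT18 and KRT19. The 3 named neuronal markers stayed between 2.62 and 3.50, and the endothelial markers PECAM1, VWF and KDR and the fibroblast markers DCN and LUM also lay below the floor. In all, 1 of 4 named fibroblast markers (DES), 2 of 5 endothelial (ESAM and CLDN5), 3 of 5 glial (SOX10, GFAP and ERBB3, without S100B and PMP2) and 3 of 3 leukocyte markers (CD68, LYN and TYROBP) reached it. The leukocyte marker PTPRC has no named probe set here. No named marker of these lists differed by 2-fold. In bulk RNA, fewer cells of a type and less RNA per cell cannot be told apart.

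Of the 32 measured genes, 3 read at least 2-fold higher with the inhibitor (EDIL3, NTN4 and CNTNAP1), which is 9.38% beside 0.628% of all 7164 genes above the floor. The 1 gene at least 2-fold lower was EPHA7, or 3.13% beside 1.05% of all genes. Together 4 of 32 passed 2-fold, beside 1.68% of all genes. EDIL3 and CNTNAP1 reached the floor only on the inhibitor array, and EPHA7 only on the other. Each of these thus counted as measured through the array where it was high. EDIL3 and these other genes were known as strongly different when the members were chosen, so the higher share is not independent evidence about guidance genes. The members split evenly, with 16 higher and 16 lower, and their median difference was -0.04, against 0.03 over all genes, of which 46.1% were lower. This even split holds for the floor used. With the filter raised to the 75th percentile of level, 9 members were left, 3 higher and 6 lower, with a median of -0.67. That filter also goes by a gene's higher value. EPHA7, EFNB2, EFNA5 and PLXNA1 passed its level of 6.45 only on the array without inhibitor, and DPYSL2 only on the inhibitor array. The median of -0.67 is therefore partly set by the filter.

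**Figure D1:**
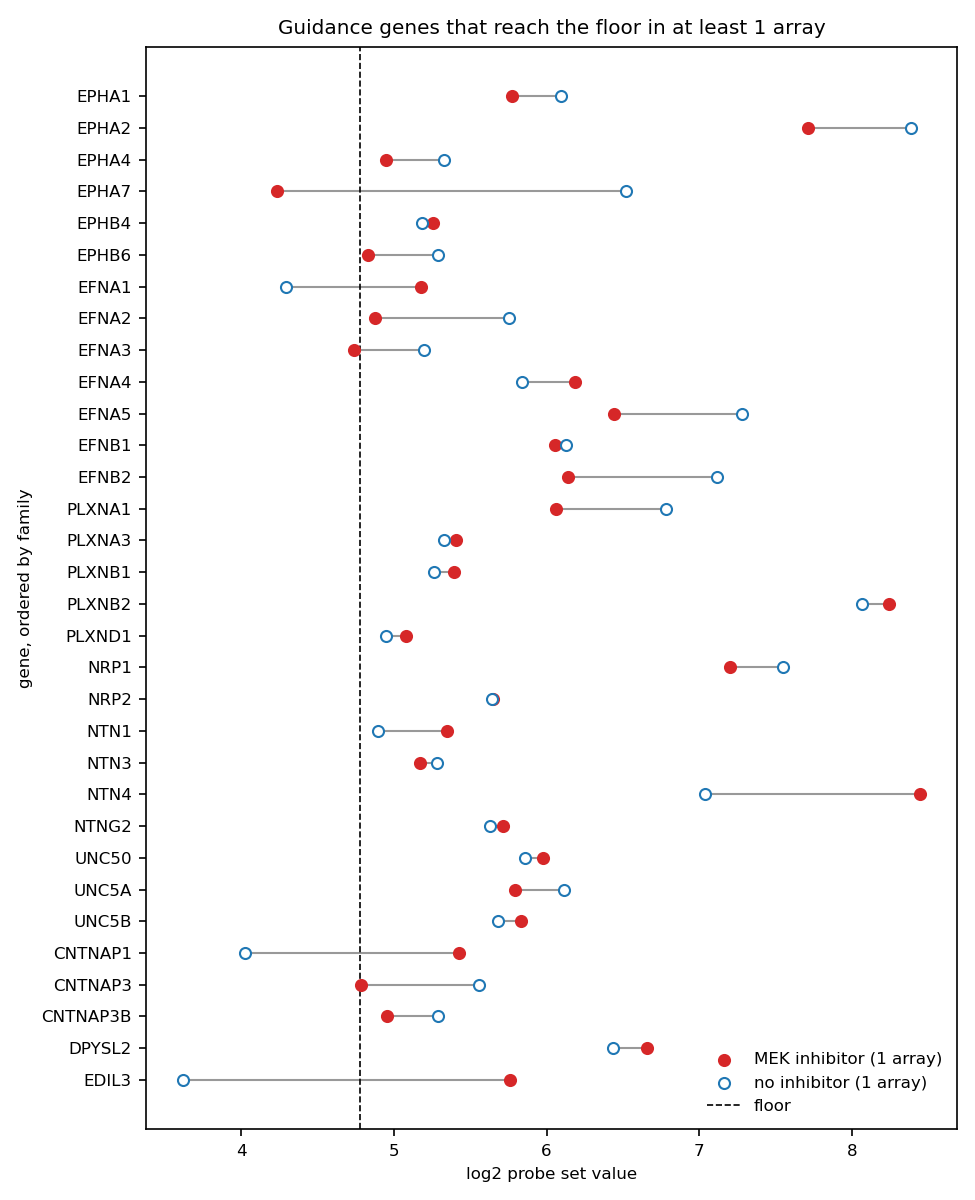
Log2 probe set values (x axis) of the 32 measured genes (y axis, ordered by family) on the MEK inhibitor array (filled) and the array without inhibitor (open), with the floor of 4.78 dashed. The widest gaps are those of EPHA7, which lies lower with the inhibitor, and of EDIL3, NTN4 and CNTNAP1, which lie higher.

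The size of a difference was read against the arrays' own scatter. Among 443 pairs of probe sets of the same gene, over 145 genes, the median disagreement in difference was 0.16, and 95% of pairs stayed within 0.80. These pairs come from the same arrays, so they do not cover the variation between cultures. Genes with more probe sets gave more of the pairs. Of the 32 genes, 8 had a difference beyond 0.80, beside 3.52% of all 7164 genes, and 10 had one below 0.16, beside 44.3% of all genes. As a second yardstick, all genes were divided into 10 groups of equal size by mean level, and 9 of the 32 genes lay outside the central 95% of their group, beside 5.03% of all genes by construction. These members are in part the ones known as strongly different when the families were chosen.

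**Figure D2:**
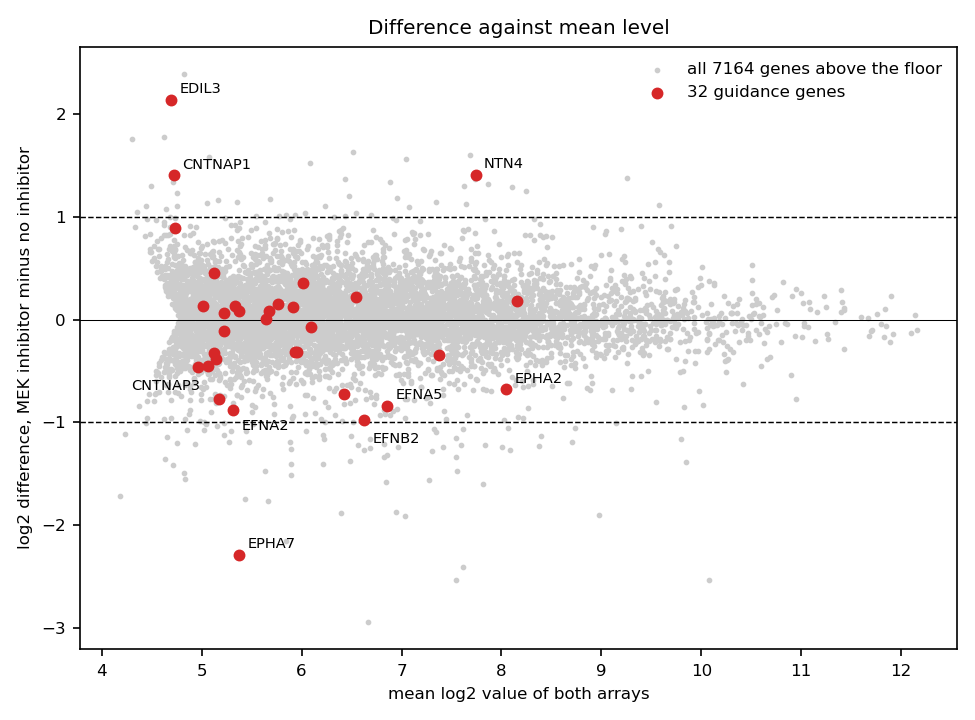
Log2 difference, MEK inhibitor minus no inhibitor (y axis), against the mean log2 value of both arrays (x axis), for 7164 genes above the floor (grey) and the 32 guidance genes (red), with dashed lines at 2-fold. The 9 named genes lie outside the central 95% of genes of similar level.

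The promoter windows that follow are those of the 4 genes at least 2-fold different, shown because they are the sequences upstream of the largest differences, and of the 3 measured ephrin genes whose windows held an EGR1 site. They come from RefSeq (GRCh38.p14) and run from 250 bases before to 50 bases after the most upstream listed start, 5′ to 3′ on the gene's strand. Capitals mark a match to a searched motif. The plan covered only the 4 genes at least 2-fold different. The 3 ephrin windows were picked because they held the EGR1 site, and other measured genes with it are not shown.
EPHA7 (chr6:93419510-93419809, minus strand): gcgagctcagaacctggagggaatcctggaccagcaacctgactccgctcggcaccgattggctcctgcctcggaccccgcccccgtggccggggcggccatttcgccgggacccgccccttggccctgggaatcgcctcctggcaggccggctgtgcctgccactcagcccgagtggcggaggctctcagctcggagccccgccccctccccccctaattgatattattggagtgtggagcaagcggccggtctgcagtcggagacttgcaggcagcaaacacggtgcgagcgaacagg
EDIL3 (chr5:84384831-84385130, minus strand): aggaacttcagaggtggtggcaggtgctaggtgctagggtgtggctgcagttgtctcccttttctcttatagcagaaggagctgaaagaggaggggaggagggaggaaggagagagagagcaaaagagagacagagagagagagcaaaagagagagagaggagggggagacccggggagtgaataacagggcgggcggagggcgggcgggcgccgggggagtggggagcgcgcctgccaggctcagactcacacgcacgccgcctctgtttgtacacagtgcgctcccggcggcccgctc
NTN4 (chr12:95791106-95791405, minus strand): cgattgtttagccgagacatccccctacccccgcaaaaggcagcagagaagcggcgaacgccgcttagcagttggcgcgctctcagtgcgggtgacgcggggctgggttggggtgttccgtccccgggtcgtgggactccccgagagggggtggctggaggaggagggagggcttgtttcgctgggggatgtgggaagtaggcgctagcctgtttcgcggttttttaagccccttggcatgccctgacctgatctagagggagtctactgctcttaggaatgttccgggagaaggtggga
CNTNAP1 (chr17:42682281-42682580, plus strand): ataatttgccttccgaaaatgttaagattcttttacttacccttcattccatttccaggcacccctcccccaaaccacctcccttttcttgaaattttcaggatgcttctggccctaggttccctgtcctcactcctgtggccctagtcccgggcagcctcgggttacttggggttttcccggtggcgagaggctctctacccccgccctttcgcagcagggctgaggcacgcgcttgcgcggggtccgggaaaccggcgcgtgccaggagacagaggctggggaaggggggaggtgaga
EFNA1 (chr1:155127626-155127925, plus strand): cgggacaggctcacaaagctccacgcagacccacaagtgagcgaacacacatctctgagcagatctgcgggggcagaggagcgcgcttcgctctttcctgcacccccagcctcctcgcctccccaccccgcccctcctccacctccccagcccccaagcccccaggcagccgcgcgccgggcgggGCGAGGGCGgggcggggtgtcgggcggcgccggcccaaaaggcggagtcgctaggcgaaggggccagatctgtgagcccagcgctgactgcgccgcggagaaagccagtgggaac
EFNA2 (chr19:1285623-1285922, plus strand): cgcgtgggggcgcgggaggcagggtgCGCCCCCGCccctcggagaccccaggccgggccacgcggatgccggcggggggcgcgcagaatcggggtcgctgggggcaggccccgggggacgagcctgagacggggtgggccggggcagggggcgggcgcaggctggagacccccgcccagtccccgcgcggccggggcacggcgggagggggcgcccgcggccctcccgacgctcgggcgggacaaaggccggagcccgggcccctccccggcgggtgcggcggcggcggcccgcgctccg
EFNA5 (chr5:107670888-107671187, minus strand): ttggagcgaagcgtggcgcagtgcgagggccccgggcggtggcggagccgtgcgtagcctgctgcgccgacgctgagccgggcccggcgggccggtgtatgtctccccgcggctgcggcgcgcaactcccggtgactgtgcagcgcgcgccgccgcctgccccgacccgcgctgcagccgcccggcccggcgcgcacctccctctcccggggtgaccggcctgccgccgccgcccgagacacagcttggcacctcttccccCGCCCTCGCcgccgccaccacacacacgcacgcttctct

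Motifs of factors that act downstream of ERK were searched on both strands: the AP-1 site TGANTCA, the ETS site CCGGAAGT, the EGR1 site GCGNGGGCG and the CArG box bound by SRF. Of the 32 measured genes, 26 had 1 or more promoter entries, 32 windows in all. The windows of EPHA7, EDIL3, NTN4 and CNTNAP1, other starts included, held none of these letters. The EGR1 site stood in 8 of the 32 windows, against 9.43% of all 35116 windows, and the genes were EFNA1, EFNA2, EFNA5, EPHA1, EPHA4, PLXNA1, PLXNA3 and PLXND1. In EFNA1 the match started 65 bases before the start, in EFNA2 224 bases before it and in EFNA5 11 bases after it. The motif is rich in G and C, and so were these windows, with a median GC content of 68.8% against 58.7% over all windows; the part of base composition in the count was not tested. The ETS site was found only in the window of UNC50 (4.14% of all windows), and the AP-1 site (7.71%) and the CArG box (1.29%) in none of the 32. A match is a description of letters and not a binding site, and the genes with the EGR1 site included higher (EFNA1) and lower (EFNA2, EFNA5) ones.

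Eph receptors read mostly lower with the inhibitor. Of 6 measured receptors, 5 were lower and 1 was higher, with a median difference of -0.42. The direction of EPHA7 was fixed by the filter, which it passed only through the array without inhibitor. EPHA7, a receptor of the A-type ephrins, read 4.23 with the inhibitor against 6.52 without it, a 4.88-fold lower level. Its difference of -2.29 ranked 5 from the bottom of 7164 genes, and the central 95% of genes of similar level ran from -0.67 to 0.69. The level with the inhibitor lies below the floor, so the true fold could not be resolved.

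EPHA2, the Eph receptor best known from carcinomas and a transcript known to be induced by RAS-ERK signalling, read 7.71 with the inhibitor against 8.39 without it. This difference of -0.67 lay outside the central 95% of its level group (-0.64 to 0.64) but within the 0.80 that held 95% of probe set pairs. EPHA4, which binds ephrins of both types, read 4.95 with and 5.33 without the inhibitor, a difference of -0.38. EPHA1 read 5.77 with and 6.09 without it, a difference of -0.32. All 4 measured EPHA genes were therefore lower, 3 of them by less than 2-fold, and EPHA7 passed the filter only where it was high.

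The EPHB receptors bind mainly the transmembrane ephrin-B ligands, and the measured ones were split. EPHB6, which lacks kinase activity, read 4.83 with the inhibitor against 5.29 without it, a difference of -0.45. EPHB4, the receptor of ephrin-B2, read 5.25 with and 5.19 without it, a difference of 0.07. The other 7 named Eph receptor genes stayed below the floor in both arrays, with values from 2.26 to 4.54 and differences from -0.19 to 0.22, 4 lower and 3 higher. EPHB2 has no named probe set here and was not read.

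Ephrins held both directions. Of 7 measured ligands, 5 were lower and 2 higher, with a median of -0.46, and none passed 2-fold. EFNA3 passed the filter only through the array without inhibitor and EFNA1 only through the inhibitor array, so their directions were fixed by it. EFNB2, the transmembrane ligand of EPHB4 that marks arterial endothelium, read 6.14 with the inhibitor against 7.12 without it, 1.97-fold lower. This difference of -0.97 passed 2-fold once the median difference of all genes (0.03) was subtracted. EFNA2 read 4.88 with and 5.75 without the inhibitor (difference -0.88), and EFNA5 read 6.44 with and 7.28 without it (difference -0.84). All 3 lay outside the central 95% of their level groups.

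EFNA1, a lipid-anchored ligand of EPHA2, moved the other way. It read 5.18 with the inhibitor against 4.29 without it, 1.85-fold higher. Its difference of 0.89 ranked 75 from the top of 7164 genes, and it lay inside the central 95% of its level group (-0.79 to 0.91). The value without inhibitor is below the floor. The ligand EFNA1 thus read higher and its receptor EPHA2 lower, while the ligand EFNB2 read lower and its receptor EPHB4 nearly level. This pattern depends on the pairs chosen. The A-type ligands EFNA2 (-0.88), EFNA3 (-0.46) and EFNA5 (-0.84) read lower like EPHA2, and EFNA4 (0.35) read higher. EPHA4, which binds ephrins of both types, read lower (-0.38) like EFNB2.

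EFNA4, EFNA3 and EFNA1 are consecutive protein-coding genes on chromosome 1 in the reference annotation, and their differences alternated. EFNA4 read 6.19 with and 5.84 without the inhibitor, a difference of 0.35. EFNA3 read 4.74 with the inhibitor, just below the floor, and 5.20 without it, a difference of -0.46. EFNB1 read 6.05 with and 6.13 without it, a difference of -0.08. EFNB3 was below the floor in both arrays, with 3.57 with and 3.67 without the inhibitor.

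**Figure D3:**
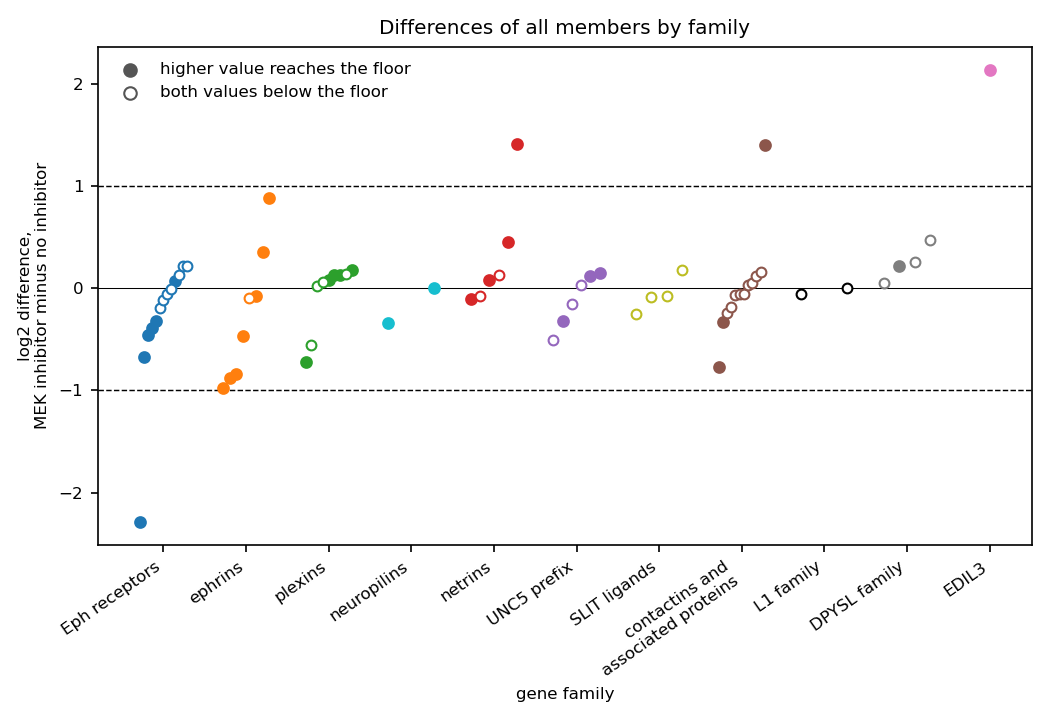
Log2 difference, MEK inhibitor minus no inhibitor (y axis), for all 67 members by family (x axis), filled where the higher value reached the floor and open where both values lay below it, with dashed lines at 2-fold. Filled points of the Eph receptors and ephrins lie mostly below 0, those of the netrins mostly above it.

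Plexins, the semaphorin receptors, were nearly level apart from PLXNA1. Of 5 measured plexins 4 were slightly higher, and their median was 0.13. PLXNA1, which signals with neuropilins for secreted semaphorins, read 6.06 with the inhibitor against 6.78 without it, 1.65-fold lower. Its difference of -0.73 lay inside the central 95% of its level group (-0.77 to 0.73).

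The other measured plexins differed by less than 0.20. PLXNB2 read 8.24 with and 8.07 without the inhibitor (0.18). PLXNB1 read 5.39 with and 5.26 without it, and PLXND1, the vascular plexin, read 5.08 with and 4.95 without it, both with a difference of 0.13. PLXNA3 read 5.41 with and 5.33 without it (0.08). The 4 plexins below the floor had differences from -0.56 to 0.14. The lowest was that of PLXNA2, an A-type plexin like PLXNA1, which lay just under the floor (4.07 with and 4.62 without the inhibitor); it is named after its values were seen.

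Neuropilins are co-receptors of plexins and also bind VEGF. NRP1 read 7.20 with the inhibitor against 7.54 without it, a difference of -0.34. NRP2 read 5.65 with and 5.64 without it, a difference of 0.01 whose sign turned under both scalings tried. Neither lay beyond the 0.80 that held 95% of probe set pairs.

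Netrins were led by NTN4, a laminin-related protein of basement membranes that binds laminin. NTN4 read 8.45 with the inhibitor against 7.03 without it, 2.66-fold higher. Its difference of 1.41 ranked 10 from the top of 7164 genes and lay outside the range of its level group (-0.69 to 0.65). Of the 4 members past 2-fold it is the only one above the floor in both arrays, so its fold rests on measured values on both sides.

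NTN1, the classical ligand of DCC, read 5.35 with and 4.90 without the inhibitor, a difference of 0.45. NTN3 read 5.17 with and 5.28 without it (-0.11). NTNG2, a membrane-anchored netrin that does not use DCC, read 5.71 with and 5.63 without it (0.08). NTN1 was thus higher by less than the 0.80 that held 95% of probe set pairs. NTN3 and NTNG2 were near level, with NTN5 and NTNG1 below the floor.

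The UNC5 netrin receptors carry a death domain. UNC5A read 5.79 with the inhibitor against 6.11 without it, a difference of -0.32, and UNC5B read 5.83 with and 5.68 without it, a difference of 0.15. UNC50 read 5.97 with and 5.86 without it (0.12). The other genes with this prefix (UNC5C, UNC5D and UNC5CL) lay below the floor, with differences from -0.50 to 0.03. All 4 SLIT symbols were below the floor as well, with values up to 4.49 and differences from -0.26 to 0.18.

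Contactins are lipid-anchored adhesion molecules of the immunoglobulin superfamily, and the contactin-associated proteins are their membrane-spanning partners. All 6 contactins stayed below the floor, with values from 2.34 to 3.93. CNTNAP1, which holds the axon side of the paranodal junction in myelinated nerve, read 5.43 with the inhibitor against 4.02 without it, 2.65-fold higher. Its difference of 1.41 ranked 11 from the top, and the value without inhibitor lies below the floor.

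CNTNAP3 read 4.79 with the inhibitor, just at the floor, and 5.56 without it, 1.71-fold lower. Its second probe set gave nearly the same difference (-0.79 against -0.77), the only member with 2 probe sets. CNTNAP3B read 4.96 with and 5.29 without the inhibitor (-0.33). These are near-identical copies on chromosome 9, so the array may not separate their transcripts. The remaining contactin-associated genes lay below the floor.

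EDIL3 is a secreted matrix protein that binds integrins through an RGD motif and is studied in endothelial and tumour cell adhesion. It read 5.76 with the inhibitor against 3.62 without it, 4.41-fold higher. The difference of 2.14 ranked 2 from the top of 7164 genes, against a central 95% of -0.79 to 0.91 among genes of similar level. The level without inhibitor lies below the floor, and no second probe set was available to check the size.

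DPYSL2, a cytosolic phosphoprotein that binds tubulin and relays semaphorin signals, read 6.66 with and 6.44 without the inhibitor, a difference of 0.22. The 3 other DPYSL genes were below the floor with differences from 0.05 to 0.48, so DPYSL2 alone was measured. None of the 4 differed by 2-fold. L1CAM and NRCAM, the L1 family genes taken by symbol here, were below the floor, with values from 2.66 to 3.16 and differences from -0.06 to 0.01. Over all families the 35 genes below the floor had values up to 4.62 and differences from -0.56 to 0.48, 18 lower and 17 higher.

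At 1.5-fold, 11 of the 32 genes differed, beside 8.22% of all genes. These were 4 higher (beside 4.62% of all genes) and 7 lower (beside 3.60%). The 4 were EDIL3, NTN4, CNTNAP1 and EFNA1. Of these, EDIL3, CNTNAP1 and EFNA1 passed the filter only through the inhibitor array, where they were high. The members were chosen with earlier results of these data known, so the shares are not independent evidence. Lower ones were EPHA7, EPHA2, EFNB2, EFNA2, EFNA5, PLXNA1 and CNTNAP3. Of these 7, 5 belong to the Eph and ephrin families, which also hold the higher EFNA1. Among the 32 measured genes, 6 are Eph receptors and 7 are ephrins. EPHA7 passed the filter only through the array without inhibitor, where it was high. By position of the protein in the pathway, 5 of 11 measured ligands (ephrins and netrins) were higher and 6 lower, and 8 of 16 receptors (Eph, plexin, neuropilin and UNC5 symbols, UNC50 included) were higher and 8 lower. These counts include EPHA7, EFNA1 and EFNA3, whose directions were fixed by the filter.

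Genes around these families were read from 4 lists. Of 6 other guidance cues and receptors above the floor, 2 were higher and 4 lower, none by 2-fold, with a median of -0.10. NEO1, the netrin receptor neogenin, read 6.40 with and 5.91 without the inhibitor (0.49), and PTK7, a catalytically inactive receptor kinase, read 4.91 with and 4.56 without it (0.36). The log2 differences were -0.22 for the Nogo receptor gene RTN4R and -0.16 for MFGE8, a paralog of EDIL3. The netrin receptor DCC was below the floor. FLRT3, a ligand of UNC5B, stayed below it too, with 4.60 with and 3.54 without the inhibitor; it is named after its values were seen.

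Of 27 intracellular effectors of guidance receptors, 19 were higher and 8 lower, none by 2-fold, with a median difference of 0.15 against 0.03 over all genes. The focal adhesion kinase gene PTK2 read 5.72 with and 5.11 without the inhibitor (0.61), and VAV3, which acts below Eph receptors, read 5.85 with and 5.30 without it (0.56). The RAC exchange factor gene TIAM1 read 5.87 with and 6.80 without the inhibitor (-0.93), and the actin regulator gene VASP read 8.19 with and 8.84 without it (-0.65). The largest differences thus lay on both sides.

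Of 9 proteases, tethers and matrix partners of guidance proteins, 6 were higher and 3 lower, none by 2-fold, with a median of 0.27. The sheddase genes ADAM17 and ADAM10, whose products cleave many surface proteins, had differences of 0.40 and 0.34. The gamma-secretase gene PSEN2 read 0.40 and the heparan sulfate proteoglycan gene SDC1 -0.58. For scale, all 14 measured genes of the ERK feedback and target list were lower, 10 by at least 2-fold, with a median of -1.19, against a median of -0.04 for the guidance genes. The ERK list was chosen with these results known and serves as a description.

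**Figure D4:**
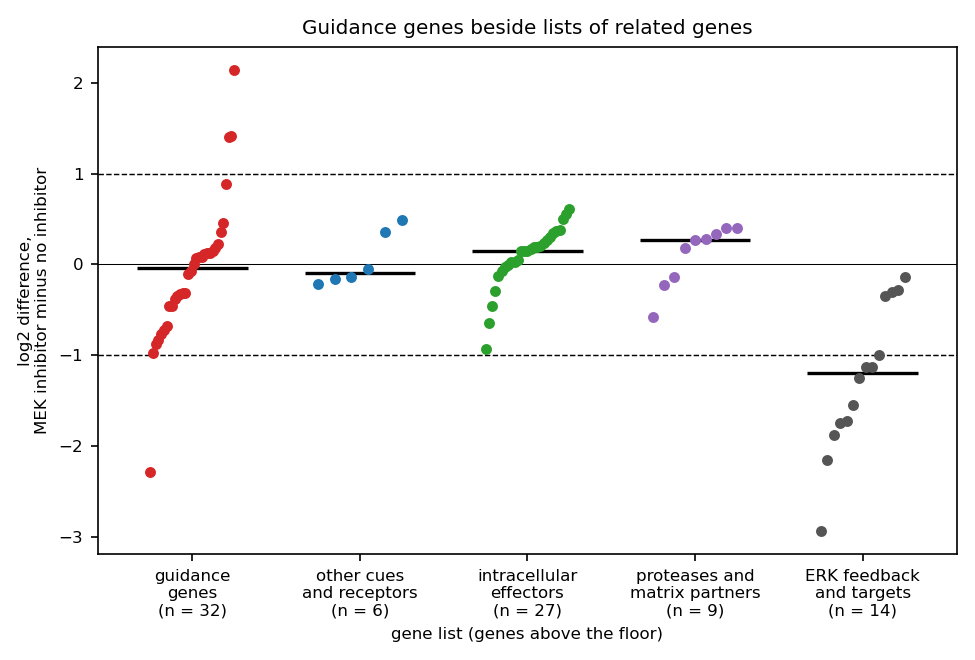
Log2 difference, MEK inhibitor minus no inhibitor (y axis), of genes above the floor in 5 groups (x axis), with bars at each median and dashed lines at 2-fold. The guidance genes spread from -2.29 to 2.14 about a median of -0.04, while the ERK feedback and target genes all lie below 0.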

How the data were processed

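Total RNA of both cultures (100 ng each) was labelled for the arrays with the GeneChip WT PLUS kit, per the labels' protocols. The authors deposited summarised probe set values, 1 for each array. The deposited values are taken as log2 from their range, and each fold rests on that reading. Affymetrix Expression Console 1.3 is named in the submitters' processing notes, with no account of background correction or normalization in the sources used. The array medians (3.46 with the inhibitor, 3.49 without) were close, so values were used as deposited, and a loss of total RNA would not show. Of 53617 probe sets, 16098 carry a gene symbol; microRNA and scaRNA symbols were set aside. All 67 members matched the reference by Entrez ID, with no symbol changed. Differences are inhibitor minus none, computed with Python 3.11.15, numpy 2.4.6 and pandas 2.3.3. Counting was tested on simulated data with shifts larger than the threshold, which checks the code only and not the calls made here. The number of arrays limits the precision. The members and lists were chosen with earlier results of these data known. Every measured member is named; of other lists, up to 4 measured genes with the largest differences. Alternatives were 2 scalings (median and a statsmodels 0.14.6 lowess trend), no filter, a 75th percentile filter, averaged probe sets, and thresholds of 1.5-fold and 3-fold. Leaving out UNC50 or EDIL3 was added after seeing the data.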

Additional observations from a re-analysis of the deposited data

How the results depend on the processing

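No paired analysis was possible because each condition has 1 array, which also leaves none to drop. The 3 genes at least 2-fold higher remained 3 under both scalings, without the filter and with averaged probe sets. Among all 7164 genes above the floor, 45 were higher in the main setting and 45 with averaged probe sets. The scalings gave 39 (median) and 34 (loess), and no filter gave 56 of 13763 genes. With the 75th percentile filter, which left 9 members, 1 of them (NTN4) was higher, beside 24 of all 3677 genes. At 3-fold 1 member (EDIL3) was higher, beside 6 of 7164 genes. The 1 gene at least 2-fold lower, EPHA7, was joined by EFNB2 under subtraction of the median difference and of the loess trend (2 lower each). The count lower over all 7164 genes rose there too, from 75 to 83 and 88. EPHA7 stayed the only lower member with the 75th percentile filter and at 3-fold, beside 52 of 3677 and 14 of 7164 genes. At 1.5-fold 7 members were lower, beside 258 of 7164 genes. The median difference of -0.04 was -0.67 with the 75th percentile filter, and ran from -0.08 to -0.003 under the other settings. Several lower members passed the 75th percentile filter only through the array without inhibitor, so its median is partly set by the filter. Leaving out EDIL3 gave 2 higher (beside 44 of 7163 genes), and leaving out UNC50 changed neither count. No measured member moved by more than the median probe set disagreement (0.16), and NRP2 alone changed sign (-0.02 and -0.04 under the scalings). This was largely fixed in advance and says little about stability. The filters cannot change a gene's difference, and averaging could change only CNTNAP3. Subtracting the median shifted every gene by -0.03, and the loess trend shifted genes by -0.16 to 0.04. Dim signal limits EPHA7, EDIL3, CNTNAP1, EFNA1 and EFNA3, each below the floor on 1 array.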

Other observations

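Antisense genes that share a name with a member but were left out of the families all lay below the floor. EPHA1-AS1 read 2.46 with the inhibitor and 2.73 without it, and UNC5B-AS1 read 3.36 with and 3.39 without it. EPHA5-AS1 read 3.72 with and 3.42 without it, SLIT1-AS1 2.25 with and 2.17 without it, and CNTN4-AS2 2.09 with and 2.36 without it. None of the 5 differed by 2-fold.

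Besides the EFNA4, EFNA3 and EFNA1 cluster, 1 other pair of members are consecutive protein-coding genes in the reference annotation. These are CNTN6 and CNTN4 on chromosome 3, with differences of 0.03 and -0.05, both below the floor.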
